A study of Arabidopsis thaliana with 24 samples.

Results

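Polysome-bound mRNA of exa1-1 mutant seedlings was compared with that of wild-type seedlings (Col-0), both after 60 min in 200 mM NaCl. The comparison was chosen by treatment and genotype alone and takes 6 of the 24 libraries of the study, 3 independent biological replicates of exa1-1 and 3 of the wild type. All were whole Arabidopsis thaliana seedlings, 9 days old, grown on half-strength MS medium with sucrose. The other libraries are both genotypes in MS medium without added NaCl, at 39 °C and at 23 °C, each for 60 min, with 3 replicates per group. The mutant is represented by a single allele.

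EXA1 is a GYF-domain protein. GYF domains bind proline-rich peptides, and the Arabidopsis protein is known as a partner of cap-binding initiation factors, as a host factor for certain plant viruses and as a regulator of immune receptor translation. Polysome-bound mRNA is the part of the message pool that carries several ribosomes. The values below are therefore amounts of a message in the polysome fraction, and a change in transcript abundance cannot be told apart from a change in ribosome loading. In whole seedlings, fewer cells of a type and less RNA per cell cannot be told apart either.

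Total gene counts lay between 17861136 and 18941326 in the 6 salt-treated libraries, and between 17861136 and 20629439 in all 24. Replicates of the salt-treated groups differed by 1.74 to 2.82 times the variance of counting alone. Among the MS libraries the third exa1 replicate stood apart, at up to 7.21 times. List counts in MS and for the difference between conditions are given with and without it, and MS values of single genes use all 3 replicates. Without it no MS call of the 230 named genes turned round, 4 were lost and 7 gained. No pair of libraries held identical counts.

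EXA1 itself (AT5G42950, chromosome 5, 17224270 to 17231384 in TAIR10.1, plus strand) had 7.65, 6.59 and 6.44 CPM in exa1 libraries, against 92.5, 96.0 and 95.8 CPM in WT libraries, where CPM is the count scaled to library size after TMM normalization. The mutant level was 7.27% of the wild-type level, with a log2 fold change of -3.78 (SE 0.0735, adjusted p = 1.77e-33). The genotypes did not overlap in salt, nor in any of the other conditions. The deficit in salt was larger than in MS (log2 fold change -2.76 there, difference -1.02, adjusted p = 2.62e-09). An uncharacterized locus chosen after its values were seen, AT1G64795, went the other way more than any other gene tested: its counts were 1290, 1504 and 1538 in exa1 libraries, against 1, 6 and 2 in WT libraries. In the other 3 conditions too it had at least 571 counts in every exa1 library, against at most 7 in any WT library. Whether it belongs to the background of the line was not tested. It lies within ILA, on the opposite strand, and reads of the pair cannot be told apart, since the strand setting of the counting is not given in the sources used here. ILA was at 0.23 on the log2 scale (SE 0.0511, adjusted p = 0.00037).

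**Figure D1:**
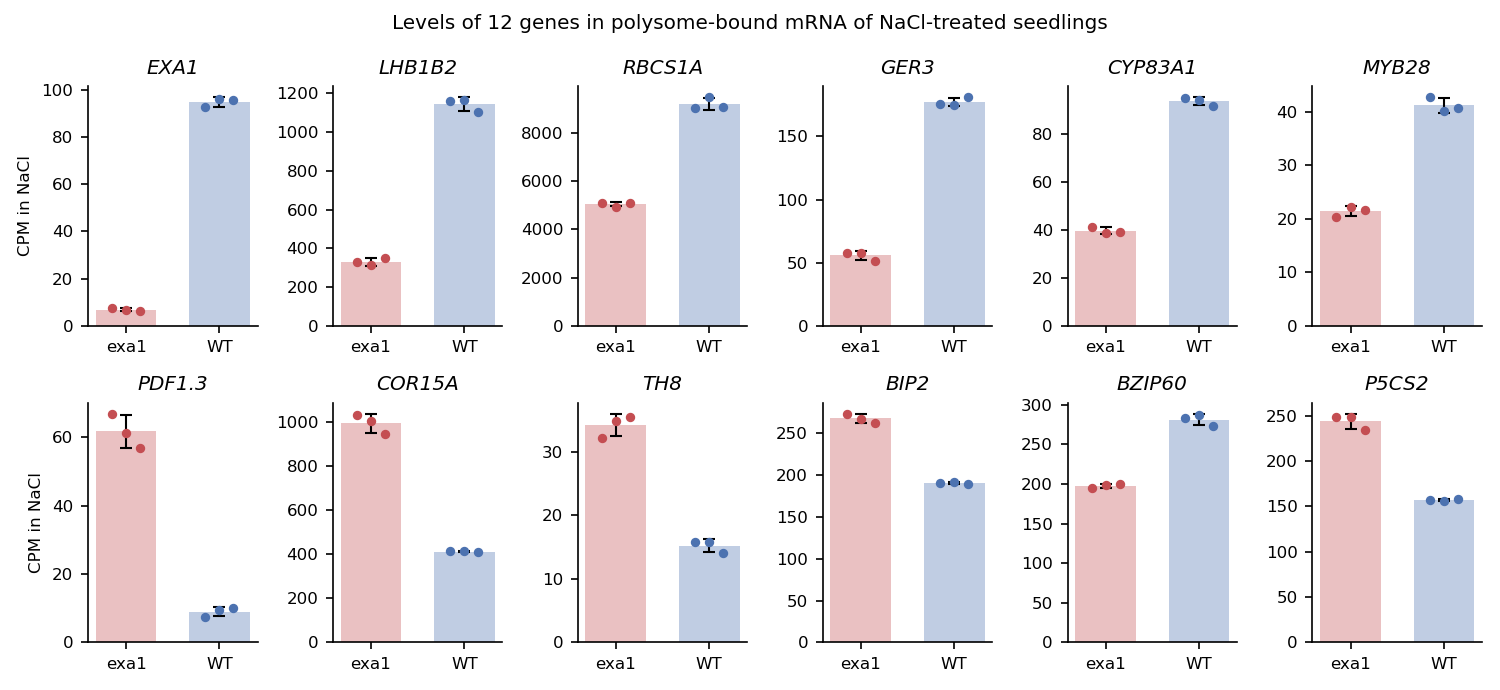
CPM of 12 genes in salt-treated seedlings: bars are means, error bars SD and points the 3 libraries of exa1 (left) and of WT (right), each panel with its own axis from 0. In every panel shown the exa1 points lie wholly below or wholly above the WT points, as for RBCS1A below and BIP2 above. The rule for the largest changes required this of LHB1B2, GER3, PDF1.3, COR15A and TH8. Of all genes tested 45.1% did not overlap.

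Of the 32833 genes counted, 21453 had enough counts to be tested. At a Benjamini-Hochberg adjusted p under 0.05, 3282 genes (15.3%) were higher in exa1 under salt and 3669 (17.1%) were lower, together 32.4% of those tested, so that a call by itself is common. Most of the called differences were small. Genes called higher had a median of 0.30 on the log2 scale, or 1.23-fold, and genes called lower a median of -0.383, or 1.3-fold. At least 2-fold differences with a call numbered 146 higher (0.681%) and 327 lower (1.52%), and at 1.5-fold the numbers were 485 (2.26%) and 1001 (4.67%). The balance of directions depends on scaling: higher genes made up 47.2% of calls with TMM, but 61.5% (4608 higher, 2879 lower) when libraries were scaled by their totals alone, and 59.9% (4052 higher, 2712 lower) with the deposited FPKM. Without overlap between the 3 libraries of each genotype were 45.1% of all genes tested (22.1% higher and 23.1% lower).

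**Figure D2:**
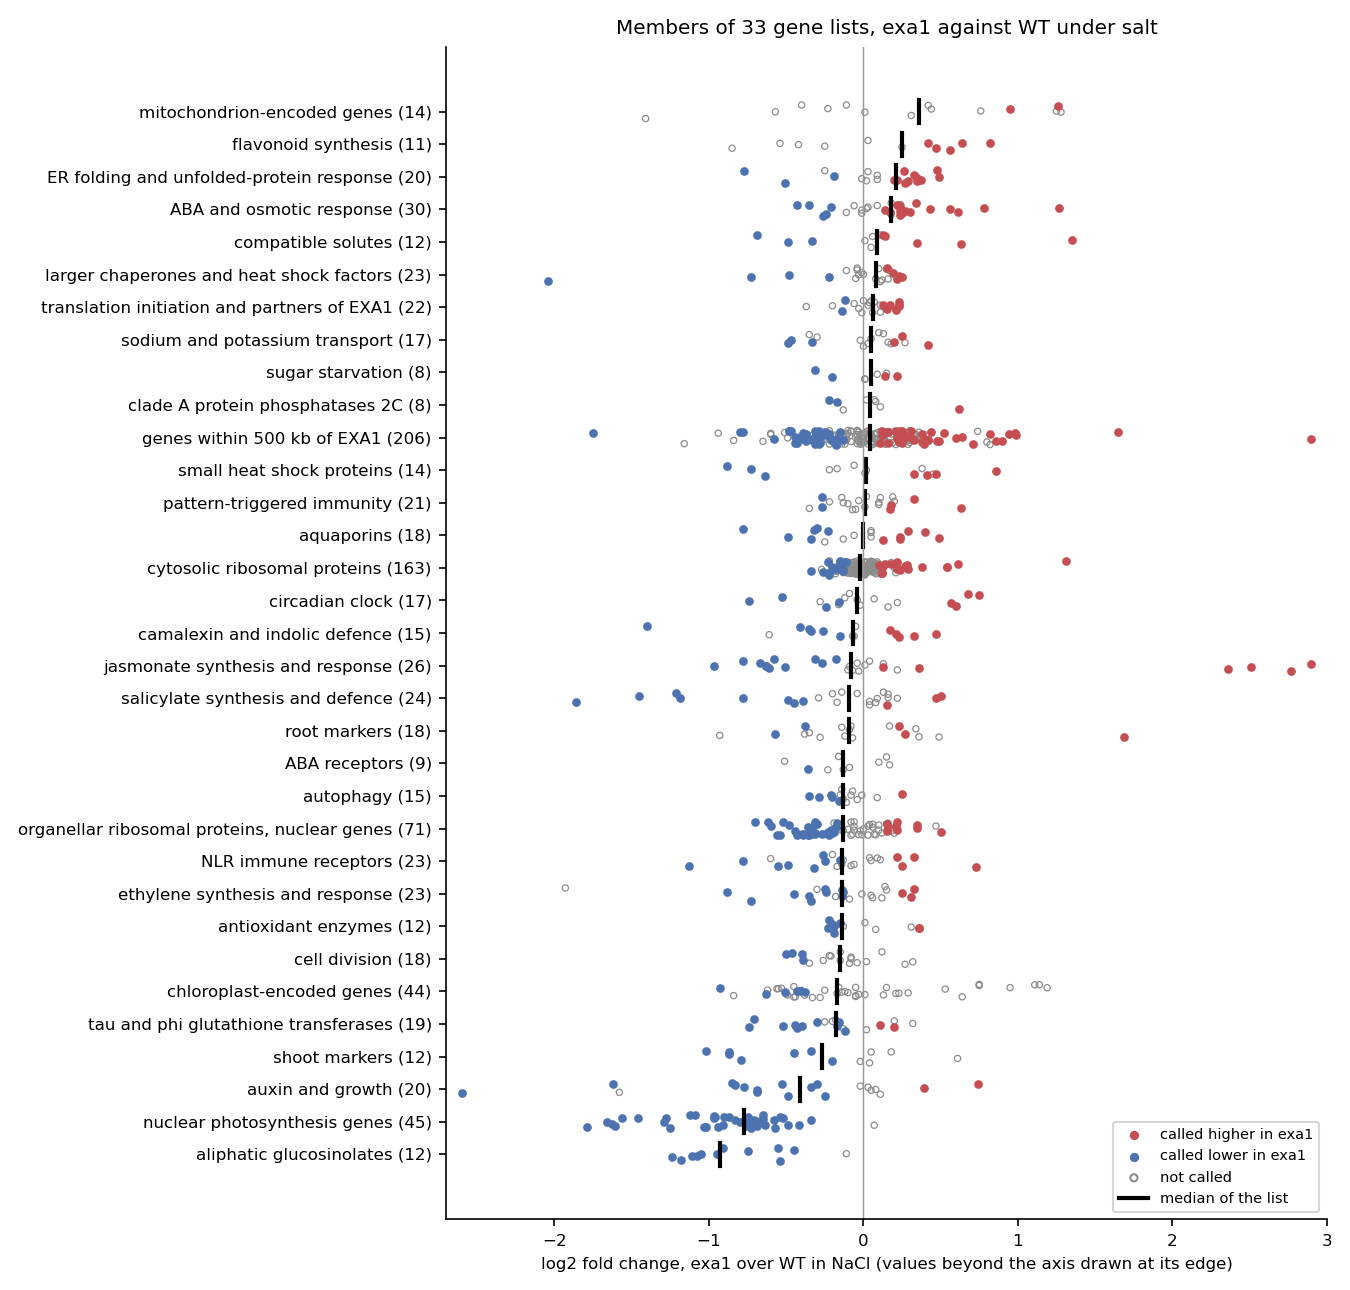
Log2 fold change, exa1 over WT in NaCl, of each measured member of 33 gene lists (number measured in brackets), with filled points for called genes and a bar at the list's median. Aliphatic glucosinolate and nuclear photosynthesis genes lie furthest to the left, with medians of -0.93 and -0.77.

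Nuclear genes of the photosynthetic apparatus were the group most uniformly lower in the mutant. They encode the antenna proteins, the nuclear-encoded photosystem subunits and the small subunit of Rubisco, and in Arabidopsis they supply most of the leaf's abundant messages. Of 45 measured members 44 were lower and none was higher, beside 17.1% lower and 15.3% higher among all genes tested. The list's median was -0.77 on the log2 scale, 58.5% of the wild-type level, against 0.01 for all genes. Summed over the list, exa1 libraries held between 27329 and 27433 CPM and WT libraries between 47989 and 49209 CPM.

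Among antenna proteins of photosystem II 13 of 14 were lower, with a median of -1.02. LHB1B2, an antenna gene of that complex, had 331, 312 and 351 CPM in exa1 libraries, against 1163, 1166 and 1104 CPM in WT libraries (-1.79, SE 0.12, adjusted p = 3.75e-06). Its neighbour LHB1B1 was at -1.66 and the linked CAB2 and CAB3 at -1.63 and -1.56, but these genes are nearly identical within each cluster and reads may have been split between their copies. LHCB3, which has no such twin beside it, had 59.1, 55.7 and 57.8 CPM in exa1 libraries, against 157, 163 and 156 CPM in WT libraries (-1.46, SE 0.0494, adjusted p = 5.36e-25). The mutant thus had 36.3% of the wild-type level of LHCB3, with no overlap, as in 23.1% of all genes that were lower. The only member not called was LHCB2.3, a weakly counted antenna gene singled out after its values were seen (0.07, SE 0.222, adjusted p = 0.861).

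All 4 genes of the photosystem I antenna, all 12 of photosystem I, all 11 of photosystem II and all 4 of the Rubisco small subunit were lower, with medians of -0.80, -0.74, -0.75 and -1.10. PSBR, a subunit of photosystem II, had 1581, 1634 and 1533 CPM in exa1 libraries, against 3054, 3200.4 and 3069.8 CPM in WT libraries (-0.97, SE 0.0453, adjusted p = 1.51e-20). PSBO1, a protein of the oxygen-evolving complex, fell least among the called members, at 79.2% of the wild-type level (-0.34, SE 0.0613, adjusted p = 0.000278). RBCS1A, the major gene for the Rubisco small subunit, had 5098, 4927 and 5090 CPM in exa1 libraries, against 9031, 9453 and 9046 CPM in WT libraries (-0.87, SE 0.0413, adjusted p = 2.76e-20). In each of these genes every exa1 library lay below every WT library, as in 23.1% of all genes tested. Libraries of exa1 in MS were also lower, in 39 of 45 members with none higher (median -0.56; 39 and none without the third exa1 replicate, median -0.48), beside 19.5% lower and 16.5% higher among all genes, or 36.0% in both directions. The difference between the conditions was called negative, meaning lower in salt, for 28 members and positive for 1, and for 40 and 0 without the third exa1 MS replicate. Such negative calls were made for 9.36% of all genes and positive ones for 10.6%, together 20.0%. In the heat experiment, whose libraries are all separate, 38 members were lower and 3 higher at 23 °C, and 40 lower and 1 higher at 39 °C. Among all genes 34.8% were called in either direction at 23 °C and 28.8% at 39 °C.

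Leaf genes outside the photosystems moved with this group. Among 12 shoot markers 7 were lower and none higher, with summed levels between 2419 and 2467 CPM in exa1 libraries and between 3882 and 3928 CPM in WT libraries. Lower were CA1, a carbonic anhydrase (-1.02, SE 0.0396), RCA, the activase of Rubisco (-0.87, SE 0.0476), the photorespiratory genes GLDP1 (-0.87), GOX1 (-0.79) and SHM1 (-0.34), SBPASE of the Calvin cycle (-0.45) and KAT1, a potassium channel of guard cells (-0.20). The shoot markers that act in epidermal and stomatal identity, FMA, TMM, MYB60 and MYB0, and the wax gene CER1 were not called. Root markers had 3 members higher and 2 lower of 18 (16.7% and 11.1%, beside 15.3% and 17.1% of all genes), with a median of -0.09. Their summed levels lay between 1283 and 1320 CPM in exa1 libraries and between 1143 and 1159 CPM in WT libraries. Most of that sum came from PYK10, a beta-glucosidase of roots and hypocotyls (0.23, SE 0.0379, adjusted p = 8.09e-06). The part of tissue makeup in the photosynthesis result was not tested.

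Of 44 measured chloroplast-encoded genes 6 were lower (13.6%, beside 17.1% of all genes) and none higher. Chloroplast-encoded genes made up at most 0.0134% of the counts of a salt-treated library. Nuclear genes for organellar ribosomal proteins were lower in 31 of 71 cases (43.7%) and higher in 9 (12.7%), with a median of -0.13. PSRP5, a plastid-specific ribosomal protein, had 277, 271 and 273 CPM in exa1 libraries, against 447, 451 and 435 CPM in WT libraries (-0.70, SE 0.0404, adjusted p = 1.64e-17). SSR16, of the small subunit, was at -0.60 and PRPL35, of the large one, at -0.54. The mitochondrion-encoded list had 2 of 14 members higher (14.3%, beside 15.3% of all genes) and none lower.

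Genes of the aliphatic glucosinolate pathway were also lower nearly throughout. Aliphatic glucosinolates are sulfur-rich defence compounds of the Brassicaceae made from methionine. Their synthesis runs through chain elongation (BCAT4, MAM1), core enzymes (CYP79F1, CYP83A1) and side-chain oxidation (FMO_GS-OX1), under the transcription factors MYB28 and MYB29. Of 12 measured members 11 were lower (91.7%) and none was higher, beside 17.1% and 15.3% of all genes. The median was -0.93 (52.6% of the wild-type level). SOT17, a sulfotransferase named after its values were seen, was the exception at -0.11.

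MYB28 had 20.4, 22.2 and 21.6 CPM in exa1 libraries, against 42.7, 40.2 and 40.7 CPM in WT libraries (-0.95, SE 0.0637, adjusted p = 1.75e-15). In MS the same gene was at 0.06 (adjusted p = 0.405), and the difference between conditions was -1.0 (adjusted p = 1.36e-12). CYP83A1, which converts the aldoximes of the pathway, had 41.2, 38.5 and 39.3 CPM in exa1 libraries, against 94.8, 94.2 and 91.8 CPM in WT libraries (-1.24, SE 0.0541, adjusted p = 1.64e-21). It too fell further in salt than in MS (-0.30 in MS, difference -0.93, adjusted p = 3.82e-13). MAM1, the methylthioalkylmalate synthase, stood at -1.11 in salt and -0.22 in MS, BCAT4 at -1.08 and -0.49, and CYP79F1 at -1.18 and -0.77. Exa1 and WT did not overlap in salt for any of these 5 genes, beside 23.1% of all genes that were lower without overlap. IPMI1, an isopropylmalate isomerase subunit that also serves the chain elongation, is not a member of the list and was among the largest falls. It had 5.78, 5.85 and 5.22 CPM in exa1 libraries, against 18.5, 13.4 and 19.9 CPM in WT libraries (-1.62, SE 0.118, adjusted p = 2.65e-13). It was among the 6 named genes whose genotype difference was most negative in salt relative to MS (-1.22). For the list as a whole MS gave 10 members lower and none higher with a median of -0.26 (10 and none, median -0.25, without the third exa1 replicate), and the difference between conditions was called negative in 10 members and positive in 1 (9 and 1 without the third exa1 MS replicate). At 23 °C 5 members were higher and 3 lower, and at 39 °C 4 were higher and none lower.

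Most chaperone genes of the endoplasmic reticulum (ER) were higher in the mutant. The ER folds secreted and membrane proteins with the help of BiP, calreticulin, calnexin and disulfide isomerases, and the unfolded-protein response raises these helpers through the sensors IRE1 and bZIP28 and the factor bZIP60. Of 20 members 11 were higher and 3 lower, with a median of 0.21 and summed levels between 2331 and 2353 CPM in exa1 libraries and between 2021 and 2043 CPM in WT libraries. The genes called higher encode chaperones, folding enzymes or, in the case of IRE1-1, a stress sensor.

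BIP2, an ER Hsp70, had 273, 267 and 262 CPM in exa1 libraries, against 190, 191 and 189 CPM in WT libraries (0.49, SE 0.0571, adjusted p = 1.51e-07), though it is nearly identical to BIP1 (0.35, adjusted p = 0.00331). CRT1a, a calreticulin, had 158, 157 and 162 CPM in exa1 libraries, against 116, 115 and 111 CPM in WT libraries (0.48, SE 0.0446, adjusted p = 1.34e-11). CNX1, a calnexin, was at 0.37 and SHD, the ER Hsp90, at 0.35 (adjusted p = 2.69e-09 and 2.6e-09). Exa1 and WT libraries did not overlap in these genes, which were 1.27- to 1.41-fold higher in exa1. Of all genes tested 22.1% were higher without overlap. The response factor gene BZIP60 went down instead, with 195, 199 and 200 CPM in exa1 libraries, against 284, 287 and 274 CPM in WT libraries (-0.51, SE 0.0454, adjusted p = 5.44e-12). Also lower were CRT3 (-0.19), a calreticulin for receptor folding, and BIP3 (-0.77, adjusted p = 0.0157), the inducible BiP, which had only 2.01 and 3.44 mean CPM in exa1 and WT libraries. Both were named after their values were seen.

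In MS the same list had 2 members higher and 10 lower (median -0.15), or 2 and 11 without the third exa1 replicate. The difference between conditions was called positive in 12 members and negative in 1, or 13 and 1 without the third exa1 MS replicate. BIP2 was at -0.19 in MS, so that its difference was 0.68 (adjusted p = 4.67e-07), and CRT1a, CNX1 and SHD had differences of 0.58, 0.57 and 0.47. BZIP60 stood at -0.51 in MS as well and had no such difference (0.00, adjusted p = 0.977). At 23 °C, also without added NaCl, 12 members of the ER list were higher and 2 lower (median 0.23). At 39 °C 7 were higher and 5 lower (median 0.03). BIP2, CRT1a, CNX1 and SHD stood at 0.56, 0.8, 0.49 and 0.37 at 23 °C, and BZIP60 at 0.05. The rise of this list was therefore not confined to salt.

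**Figure D3:**
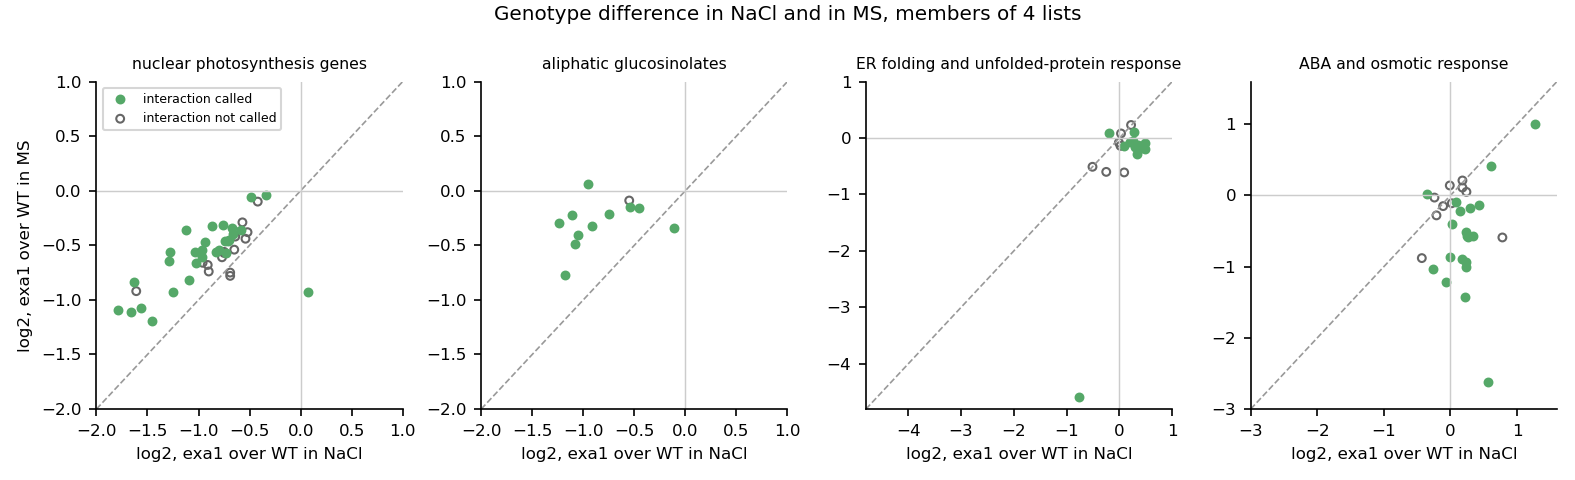
Log2 fold change, exa1 over WT, in NaCl (x axis) against MS (y axis) for the members of 4 lists, filled where the difference between conditions was called; the dashed line marks equal values. Photosynthesis and glucosinolate genes lie mostly left of the line, and ER folding and ABA genes mostly right of it and below the zero line of MS.

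The plant ER stress element, CCAAT and CCACG with 9 bases between them, was searched on both strands in the window from 250 bases before to 50 after each gene's annotated start (RefSeq, TAIR10.1). It was present in 4 of 20 promoters of the ER list (20.0%), beside 0.495% of the promoters of all genes tested. The genes holding it were SHD, CNX1 and PDIL1-1, called higher, and PDIL1-2, not called (0.09). That of SHD lies upstream of the start and is shown, on the gene's strand, because SHD was among the genes that rose; capitals mark the element (chr4:12556059-12556110, minus strand), whose end is shared with a G-box, CACGTG.

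SHD: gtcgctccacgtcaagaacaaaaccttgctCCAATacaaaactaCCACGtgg

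The core of the abscisic acid response element (ABRE), ACGTG, was frequent in the same promoters: 15 of 20 ER promoters held it (75%), beside 28.0% of all genes tested. It was found in 9 of the 11 ER genes called higher, in 2 of the 3 called lower and in 4 of the 6 not called. The promoter of CRT1a held it 5 times. The stretch that holds them is shown, with cores in capitals; where both strands carry a core they form the G-box (chr1:21092710-21092898, minus strand).

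CRT1a: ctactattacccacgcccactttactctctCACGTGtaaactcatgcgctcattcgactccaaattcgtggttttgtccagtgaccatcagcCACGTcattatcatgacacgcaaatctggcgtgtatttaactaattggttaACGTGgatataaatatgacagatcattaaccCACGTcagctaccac

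Genes of the abscisic acid (ABA) and osmotic response were on balance higher in the mutant. ABA is the hormone of water deficit: its receptors inhibit clade A protein phosphatases 2C, which frees kinases that activate ABRE-binding factors and their targets, among them dehydrins and other late embryogenesis abundant (LEA) proteins. Of 30 measured targets and regulators 15 were higher and 5 lower (median 0.18), with summed levels between 28387 and 29834 CPM in exa1 libraries and between 25112 and 25659 CPM in WT libraries.

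COR15A, a chloroplast-targeted protein of cold and drought, rose most, with 1031, 1004 and 948 CPM in exa1 libraries, against 413, 413 and 410.3 CPM in WT libraries (1.27, SE 0.0459, adjusted p = 4.24e-24). It was 2.41-fold higher in salt and was also higher in MS (1.01), at 23 °C (1.12) and at 39 °C (0.81). LTI65, also called RD29B, averaged 42.0 ± 2.52 CPM in exa1 libraries and 24.5 ± 1.36 CPM in WT libraries (SD, n = 3 each; edgeR 0.78, SE 0.0795, adjusted p = 1.79e-10). The LEA gene LEA7 had 127, 120.2 and 124 CPM in exa1 libraries, against 78.8, 84.3 and 88.9 CPM in WT libraries (0.56, SE 0.0529, adjusted p = 2.92e-11). In all 3 genes every exa1 library lay above every WT library, which the rule for the largest changes required of COR15A. Of all genes tested 22.1% were higher without overlap. ADH1, an alcohol dehydrogenase induced by low oxygen and ABA, was at 0.61, and the homeobox gene HB-7 at 0.43.

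Much-counted dehydrin and cold-regulated genes rose by smaller amounts. ERD10 had 2677, 2722 and 2580 CPM in exa1 libraries, against 2129, 2081 and 2087 CPM in WT libraries (0.34, SE 0.0443, adjusted p = 5.7e-08). COR47 was at 0.25 (adjusted p = 0.000226), LTI78, also called RD29A, at 0.30 (adjusted p = 9.61e-07) and LTI30 at 0.27 (adjusted p = 3.66e-07). These changes of about 1.19- to 1.27-fold exceeded the spread between libraries, which did not overlap. Of all genes tested 22.1% were higher without overlap. RD20, a caleosin gene, was the member that fell most, with 150.2, 148 and 143 CPM in exa1 libraries, against 196, 197 and 203 CPM in WT libraries (-0.43, SE 0.0467, adjusted p = 8.16e-10). KIN1 and KIN2, near-identical cold genes, were not called.

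In MS the list had 2 members higher and 17 lower (median -0.34), or 3 and 18 without the third exa1 replicate. The difference between conditions was called positive in 19 members and negative in 1 with and without that library. At 23 °C 4 members of the list were higher and 15 lower (median -0.3). At 39 °C 3 were higher and 13 lower (median -0.25). ERD10 stood at -0.57 in MS, giving a difference of 0.91 (adjusted p = 7.26e-14), and COR47 at -0.57, giving 0.82 (adjusted p = 6.49e-10).

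ABRE cores were present in 20 of 30 promoters of the list (66.7%), again beside 28.0% of all genes tested, 30.9% of those called higher and 30.3% of those called lower. Among the list's members 9 of 15 called higher, 3 of 5 called lower and 8 of 10 not called held it. The 3 promoters below are of genes that rose (COR15A, LTI65) and fell (RD20), each shown on the gene's strand from upstream of the start, with cores in capitals (COR15A chr2:17712331-17712388, minus strand; LTI65 chr5:21236848-21237020, plus strand; RD20 chr2:14146588-14146723, minus strand).

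COR15A: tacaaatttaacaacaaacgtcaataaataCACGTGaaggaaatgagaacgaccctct

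LTI65: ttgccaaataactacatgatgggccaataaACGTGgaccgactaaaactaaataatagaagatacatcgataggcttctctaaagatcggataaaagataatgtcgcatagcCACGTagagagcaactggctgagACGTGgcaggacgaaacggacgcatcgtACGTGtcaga

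RD20: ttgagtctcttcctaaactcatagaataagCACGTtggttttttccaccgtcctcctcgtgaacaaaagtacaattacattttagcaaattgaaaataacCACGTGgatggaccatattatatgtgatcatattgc

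Among signalling genes upstream of these targets, 37.5% of clade A phosphatases and 11.1% of ABA receptors were called, beside 32.4% of all genes. Of 8 measured clade A phosphatases, which restrain ABA signalling, HAI3 was higher (0.62, SE 0.0878, adjusted p = 3.52e-07) and HAI1 (-0.22) and PP2CA (-0.17) were lower. PP2CA lost its call without WT replicate 1 (-0.131, adjusted p = 0.062). ABI1, the founding member, was at 0.08 (adjusted p = 0.0951). Among 9 measured ABA receptor genes 1 was lower, RCAR3 (-0.36, SE 0.0409, adjusted p = 3.83e-09), and none higher. With library totals alone 4 phosphatase genes were higher and 2 lower, and 2 receptor genes were higher and 1 lower.

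Compatible solutes, small molecules that cells accumulate against water loss, had 5 of 12 genes higher and 3 lower. The 2 genes for the first enzyme of proline synthesis parted. P5CS2 had 249, 248 and 235 CPM in exa1 libraries, against 157, 156 and 159 CPM in WT libraries (0.63, SE 0.041, adjusted p = 5.48e-16). P5CS1, the copy that salt and ABA are known to induce, had 215, 225 and 223 CPM in exa1 libraries, against 308, 313 and 313 CPM in WT libraries (-0.49, SE 0.0439, adjusted p = 4.65e-12). Neither differed between genotypes past the threshold in MS, and both differences between conditions passed it (0.65 with adjusted p = 7.95e-11 for P5CS2, -0.53 with adjusted p = 1.88e-06 for P5CS1). The methyltransferase gene AT1G73600 had 67.6, 64.8 and 64.4 CPM in exa1 libraries, against 27.4, 25.5 and 24.5 CPM in WT libraries (1.35, adjusted p = 8.05e-21), and its relative XPL1, which acts in phosphocholine synthesis, was lower (-0.69). ERD5, which breaks proline down, was higher (0.35) and the galactinol synthase gene GolS2 lower (-0.33).

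Sodium and potassium transport genes had 3 of 17 members higher and 3 lower (beside 15.3% higher and 17.1% lower of all genes), or 6 higher with library totals. SOS3, a calcium sensor of the salt overly sensitive pathway, was higher (0.42, adjusted p = 6.19e-05), as were the vacuolar and endosomal exchangers NHX1 (0.20) and NHX6 (0.25), the last of these not without exa1 replicate 2 (0.215, adjusted p = 0.0723) or WT replicate 2 (0.172, adjusted p = 0.133). CBL10, a related calcium sensor of the shoot (-0.47), NHX4 (-0.49) and the proton pump HA1 (-0.33) were lower. Aquaporins, the water channels of plasma membrane and vacuole, had 6 of 18 higher and 6 lower (33.3% each way). PIP1A had 432, 442 and 437 CPM in exa1 libraries, against 328, 336 and 327 CPM in WT libraries (0.40, SE 0.04, adjusted p = 8.63e-11), while TIP2_3 of the vacuolar membrane was at -0.78 (adjusted p = 3.15e-09). In MS 15 aquaporins were lower and 1 higher, with and without the third exa1 replicate, and PIP1A was among the lower ones (-0.56, difference 0.96, adjusted p = 1.4e-16).

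Plant defensins of the PDF1 family are small antifungal proteins induced by jasmonate together with ethylene. PDF1.3 had 66.8, 61.3 and 56.9 CPM in exa1 libraries, against 7.56, 9.34 and 10.2 CPM in WT libraries (2.77, SE 0.0948, adjusted p = 4.71e-24). PDF1.2 had 41.3, 40.9 and 34.4 CPM in exa1 libraries, against 6.72, 7.81 and 5.93 CPM in WT libraries (2.51, SE 0.103, adjusted p = 1.98e-22). PDF1.2c was at 2.36, and the family's near-identical copies make the split between them uncertain. These rises, of 5.14- to 6.81-fold, were the largest of all genes named by rule, and the family was higher in MS too, where the differences were larger (3.57 for PDF1.3, 3.90 for PDF1.2, 4.77 for PDF1.2c).

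Of 26 jasmonate genes 6 were higher (23.1%) and 11 lower (42.3%), beside 15.3% and 17.1% of all genes. Of the 6 higher, 4 were PDF1 genes (PDF1.2b, with few counts, at 3.39). ORA59, the factor that activates PDF1.2, was lower (-0.97), as were the repressor gene JAZ7 (-0.78), the synthesis gene LOX2 (-0.67) and VSP2, a vegetative storage protein of the wound branch (-0.63, SE 0.0496, adjusted p = 1.33e-13); ORA59 was picked after its value was seen. Ethylene genes had 3 of 23 higher (13.0%) and 10 lower (43.5%). The response factors ERF2 (-0.88, SE 0.073, adjusted p = 6.11e-13) and ERF6 (-0.73) and the synthesis gene ACS6 (-0.34) were lower.

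Salicylate genes, which govern resistance to biotrophic pathogens, had 3 of 24 higher (12.5%) and 8 lower (33.3%). Among all genes tested 15.3% were higher and 17.1% lower. BGL2, the glucanase also called PR2, had 2.75, 3.86 and 3.83 CPM in exa1 libraries, against 12.5, 13.4 and 12.2 CPM in WT libraries (-1.86, SE 0.139, adjusted p = 3.81e-14). WRKY70 (-0.78) and the regulators SARD1 (-0.45) and CBP60G (-0.39) were lower. EDS16, the isochorismate synthase of salicylate synthesis (0.50), and PBS3, which acts after it (0.47), were higher. PBS3 lost its call without exa1 replicate 3 (0.385, adjusted p = 0.0821) or WT replicate 3 (0.353, adjusted p = 0.103). Outside the list ACD6, an ankyrin protein of salicylate-dependent defence, fell to 27.2% of the wild-type level (-1.88, adjusted p = 1.07e-13).

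NLR immune receptors, whose translation EXA1 is known to affect, had 4 of 23 genes higher and 8 lower. RPP8 had 30.7, 32.3 and 32.3 CPM in exa1 libraries, against 54.4, 54.5 and 54.5 CPM in WT libraries (-0.78, SE 0.0602, adjusted p = 9.91e-14). SNC1 was at -0.49 and RPP13 at -0.55, whereas RPP4 (0.73) and the helper receptor ADR1 (0.33) were higher. NLR genes form families of similar sequence, so single values are uncertain. Pattern-triggered immunity had 4 of 21 higher (19.0%) and 2 lower (9.52%), beside 15.3% and 17.1% of all genes. EFR, the receptor of bacterial elongation factor, was higher (0.63) and FLS2, the flagellin receptor, lower (-0.27).

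Indolic defence metabolism had 5 of 15 members higher and 6 lower. CYP83B1, of indolic glucosinolate synthesis, was higher (0.33, adjusted p = 1.92e-06), in contrast to its aliphatic relative CYP83A1, and the transferase gene GSTF6 was at 0.47. The camalexin genes PAD3 (-0.26) and WRKY33 (-0.35) and the transporter gene PEN3 (-0.34) were lower. Tau and phi glutathione transferases, which conjugate toxic compounds, had 2 of 19 higher and 10 lower, among them GSTU20 (-0.71, adjusted p = 5.64e-15). Antioxidant enzymes had 2 of 12 higher, the copper/zinc superoxide dismutases CSD1 and CSD2 (both 0.36), and 6 lower, including CAT2 (-0.23) and CAT3 (-0.20).

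Flavonoid synthesis, which makes flavonols and anthocyanin pigments, had 5 of 11 members higher (45.5%) and none lower, beside 15.3% and 17.1% of all genes. TT4, the chalcone synthase at the entry of the pathway, had 69.1, 65.8 and 69.3 CPM in exa1 libraries, against 38.7, 37.8 and 39.5 CPM in WT libraries (0.82, SE 0.0575, adjusted p = 7.23e-15). The next enzymes TT5 (0.47) and F3H (0.42), FLS1, the flavonol synthase (0.64), and the regulator MYB12 (0.56) were higher as well. DFR, LDOX and UF3GT of the anthocyanin branch were not called. F3H lost its call without exa1 replicate 1 (0.304, adjusted p = 0.0691). No member differed between salt and MS past the threshold by edgeR's interaction test, the smallest adjusted p being that of TT4 (0.114). At 23 °C 3 members were higher and 0 lower (median 0.51). At 39 °C the direction was opposite, with 0 higher and 3 lower (median -0.22), and TT4 stood at -0.21 and F3H at -0.65.

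Genes of translation itself changed by small amounts. Of 22 initiation factors and partners of EXA1 7 were higher (31.8%) and 2 lower (9.09%), with called members between -0.14 and 0.23. Among all genes tested 15.3% were higher and 17.1% lower. The poly(A)-binding protein gene PAB8 had 225, 223 and 222 CPM in exa1 libraries, against 189, 197 and 184 CPM in WT libraries (0.23, SE 0.0411, adjusted p = 1.96e-05). EIF4G, the scaffold of the cap-binding complex, was at 0.17 (adjusted p = 0.00304) and LBA1, a helicase of nonsense-mediated decay, at 0.21. Cytosolic ribosomal proteins, taken by annotation text, were 18 higher and 18 lower of 163 measured (11.0% each way) with TMM, with a median of -0.02. Their direction depends on scaling: 39 were higher and 11 lower with library totals (median 0.03), and 36 and 7 with the deposited FPKM. In MS 128 of the 163 were lower and none higher (median -0.25), with and without the third exa1 replicate. The difference between salt and MS was positive in 93 and negative in 0, or 93 and 1 without the third exa1 MS replicate. At 23 °C the direction was opposite to that in MS, with 121 higher and 3 lower (median 0.28). At 39 °C 62 were higher and 12 lower (median 0.12).

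The auxin list had 12 of 20 members lower (60.0%) and 2 higher (10.0%), beside 17.1% and 15.3% of all genes (median -0.41). Among the lower were the auxin carriers PIN7 (-0.85, SE 0.0531, adjusted p = 2.13e-16) and PIN3 (-0.83) and SHY2, a repressor of auxin response (-0.69). MP, an auxin response factor of embryo and vascular patterning, had 43.7, 45.7 and 46.3 CPM in exa1 libraries, against 28.0, 25.8 and 27.8 CPM in WT libraries (0.74, SE 0.0718, adjusted p = 6.03e-11). Cell division genes had 4 of 18 lower (22.2%, beside 17.1% of all genes) and none higher. MCM2, of the replicative helicase, had 6.66, 8.01 and 7.5 CPM in exa1 libraries, against 10.8, 11.4 and 9.13 CPM in WT libraries (-0.50, adjusted p = 0.000855), but was higher in MS (0.41, difference -0.91, adjusted p = 1.03e-05).

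Clock genes had 4 of 17 higher and 4 lower. GI (0.60, adjusted p = 4.28e-08) and PRR7 (0.68) were higher, and the RNA-binding protein gene GRP7 had 1255, 1209 and 1039 CPM in exa1 libraries, against 1948, 1997 and 1890.1 CPM in WT libraries (-0.74, adjusted p = 4.72e-06). Small heat shock proteins had 4 of 14 higher (28.6%) and 3 lower (21.4%). HSP17.4 was higher (0.41, adjusted p = 0.00146) and the locus AT5G51440 lower (-0.88, adjusted p = 1.09e-18). Larger chaperones and heat shock factors had 5 of 23 higher and 4 lower, with HSFA2 at -0.73 (adjusted p = 1.41e-11). Autophagy genes had 5 of 15 lower (33.3%), all of the ATG8 family and led by ATG8E (-0.35), and APG7 higher (0.25). APG7 lost its call without exa1 replicate 1 (0.222), exa1 replicate 3 (0.252), WT replicate 1 (0.243) or WT replicate 2 (0.183). Of 8 sugar starvation markers 2 were higher (DIN10, 0.22, and TPS11, 0.14) and 2 lower (ASN1, -0.31, and SEN1, -0.20), of which TPS11 lost its call without any of 5 salt-treated libraries (0.121 to 0.146; all but WT replicate 2).

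Beyond the lists, the largest rises belonged to genes of varied roles. AACT1, an acyltransferase gene known here only by its annotated name, had 15.1, 15.1 and 14.2 CPM in exa1 libraries, against 7.38, 6.44 and 8.06 CPM in WT libraries (1.02, SE 0.0982, adjusted p = 4.2e-11). It was also higher in MS (0.79), at 23 °C (1.51) and at 39 °C (1.80). TH8, an h-type thioredoxin, had 32.2, 34.8 and 35.5 CPM in exa1 libraries, against 15.8, 15.8 and 14.0 CPM in WT libraries (1.17, SE 0.0866, adjusted p = 3.06e-14). NATA1, which acetylates ornithine, had 72.8, 73.1 and 69.3 CPM in exa1 libraries, against 40.3, 35.7 and 31.7 CPM in WT libraries (1.00, SE 0.0745, adjusted p = 6.63e-14). CT-BMY, a chloroplast beta-amylase of starch breakdown, had 265, 261 and 239 CPM in exa1 libraries, against 129, 130.3 and 131 CPM in WT libraries (0.97, SE 0.047, adjusted p = 3.96e-20). TH8, NATA1 and CT-BMY were 1.96- to 2.24-fold higher, without overlap because the rule for the largest changes required it. None of these 3 was called higher in MS: TH8 was at -1.11 there, NATA1 at -1.77 and CT-BMY at -0.08 (adjusted p = 0.471). ENDO2, an endonuclease (1.24), and CRK13, a receptor-like kinase (1.04), were higher in salt and lower in MS (-0.46 and -0.43).

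The largest falls also belonged to genes of varied roles, IPMI1, BGL2 and ACD6 among them. GER3, a germin-like protein, had 57.9, 57.8 and 51.6 CPM in exa1 libraries, against 176, 175 and 181 CPM in WT libraries (-1.67, SE 0.0488, adjusted p = 4.31e-27). NdhM, a subunit of the chloroplast NADH dehydrogenase-like complex, fell to 20.4% of the wild-type level (-2.29, SE 0.15, adjusted p = 7.02e-16). STOMAGEN, a peptide that promotes stomatal development and is made in leaf mesophyll, had 3.27, 3.64 and 3.5 CPM in exa1 libraries, against 11.7, 10.7 and 12.4 CPM in WT libraries (-1.74, adjusted p = 1.43e-13). The cell wall protein gene ECS1 was at -1.68. SVL2, of a family acting in cell wall organization and named for its difference from MS, was at -1.61. In each of these genes the highest exa1 library lay below the lowest WT library. The rule for the largest changes required this of all of them but SVL2. Of all genes tested 45.1% did not overlap. Metallothioneins MT2A and MT2B, metal-binding proteins with very many counts, were at -0.41 and -0.42.

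Genes near EXA1 were examined because the region around a mutation can differ between lines. Within 500 kb 40 of 206 genes were higher and 35 lower (19.4% and 17.0%), close to the shares of all genes. The NLR gene RPP8 and the ER chaperone gene BIP2 (0.49) lie in this region. So do TZP, a light-signalling protein (0.94), and AT5G42530, an uncharacterized gene at -1.75.

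**Figure D4:**
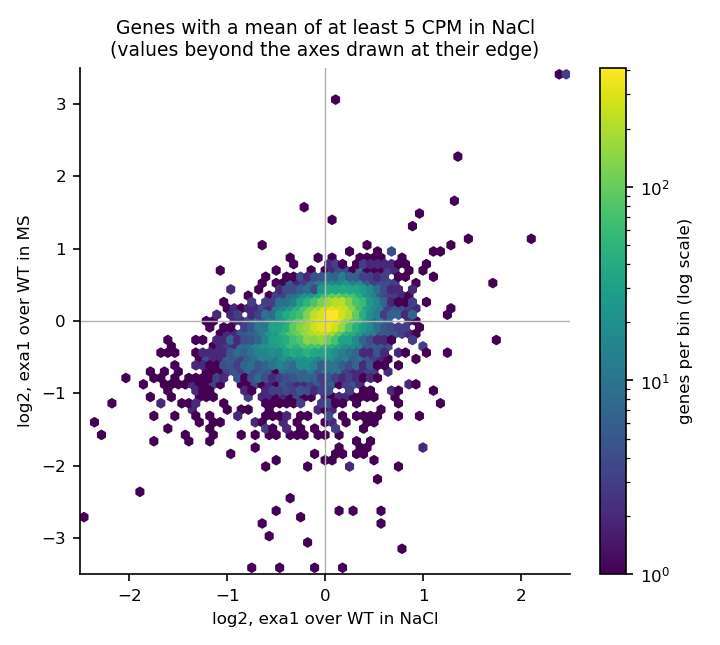
Log2 fold change, exa1 over WT, in NaCl (x axis) against MS (y axis) for 15892 genes with a mean of at least 5 CPM in NaCl, shaded by the number of genes per bin on a log scale. The Pearson r across these genes was 0.431; values beyond the axes are drawn at the edge.

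The genotype difference in salt resembled that in the other conditions only in part. Of the 3282 genes higher in salt, 1193 (36.3%) were also higher in MS and 383 (11.7%) were lower there. Of the 3669 lower in salt, 1785 (48.7%) were also lower in MS and 189 (5.15%) were higher. Without the third exa1 MS replicate these numbers were 1064 and 347 of the genes higher in salt, and 1654 and 174 of those lower. The contrasts in salt and in MS share no library but come from the same fit, and those at 23 °C and 39 °C come from another. Across 15892 genes the correlation of the log2 fold changes was r = 0.431 with MS (0.416 without the third exa1 MS replicate), and across 15800 genes 0.261 with 23 °C and 0.24 with 39 °C, as a description across genes. In all 4 conditions 249 genes were higher and 509 lower. The difference between salt and MS itself was called for 2591 of the genes called in salt (37.3%), and 1415 of these (674 higher and 741 lower in salt) had no call in MS, or 1633 without the third exa1 MS replicate.

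A few genes had next to no counts in exa1 MS libraries, and for these no fitted MS value is given. LEA7 had 1, 0 and 1 counts, GEA6, another LEA gene, 1, 1 and 1, LAC12, a laccase, 1, 1 and 1, and FLP1, a flowering-related gene, 0, 0 and 0 in exa1 MS libraries. In salt GEA6 had 8.88, 8.24 and 6.61 CPM in exa1 libraries, against 4.2, 4.1 and 3.74 CPM in WT libraries (0.98, SE 0.164, adjusted p = 8.22e-06).

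**Figure D5:**
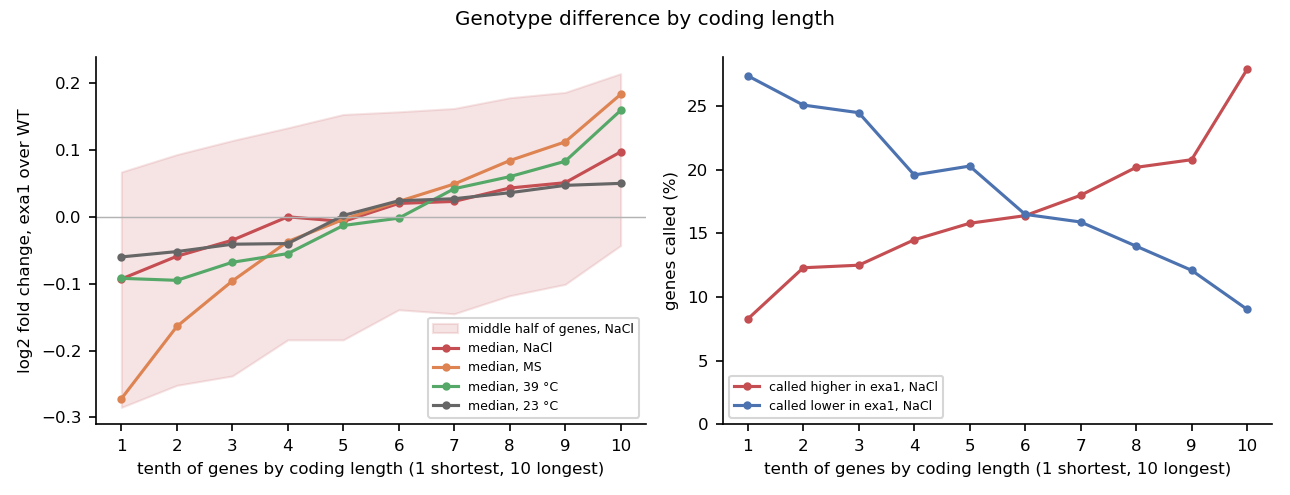
Genes in 10 bins by coding length (x axis, shortest to longest): the left panel gives the median log2 fold change, exa1 over WT, in each condition with the middle range of genes in NaCl shaded, the right panel the percentage of genes called each way in NaCl. The median climbs from -0.093 in the shortest bin to 0.097 in the longest.

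Called genes also differed in coding length. Genes higher in exa1 had a median coding length of 1389 bases and genes lower one of 957, against 1146 for all genes tested. When genes were put into 10 bins, in the bin with the shortest coding sequences (27 to 456 bases) 8.27% were called higher and 27.4% lower, with a median of -0.093. The bin with the longest (2463 to 16203 bases) had 27.9% higher and 9.03% lower, with a median of 0.097. Each exa1 library showed this slope: relative to the WT mean, the shortest bin had medians of -0.052, -0.080 and -0.149 and the longest 0.077, 0.083 and 0.124. Single WT libraries differed from their mean by no more than 0.011 in these bins. In MS the medians ran more steeply, at -0.272 in the shortest bin and 0.183 in the longest (-0.229 and 0.158 without the third exa1 replicate). Photosynthesis genes, with a median coding length of 726 bases, and cytosolic ribosomal proteins, with 429, are both short. The ER folding list has a median of 1560 bases and the ABA list one of 780. The part of length in the results for these lists was not tested.

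Several named genes overlap another gene on the opposite strand in the annotation, among them LHB1B2, CAB1, LHCB3, PSBR, RCA, GLDP1, ADH1, LEA7, P5CS1, P5CS2, BCAT4, TT4, ENDO2, CT-BMY, MP and PYK10. The libraries keep strand, but the strand setting of the counting is not given in the sources used here, so part of the reads counted for these genes may come from the partner.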

How the data were processed

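Gene counts and FPKM of 24 libraries were analysed. The authors deposited raw counts for 32833 genes and, in a second table, FPKM for the 27683 genes with any count. The tools HTSeq 0.6.1p1 and HISAT2 2.0.4, with TAIR10 as the build, are named in the submitters' processing notes; the strand and overlap settings of the counting are not given in the sources used here. The gene length implied by the deposited FPKM equals RefSeq TAIR10.1 exon length within 0.1% for 99.4% of 27501 genes, and positions are given in that build.

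Counts of the 12 libraries of the salt experiment were fitted with edgeR 4.0.16 in R 4.3.3: filterByExpr (minimum count 10, total 15), TMM, robust quasi-likelihood F tests, and Benjamini-Hochberg adjustment over all 21453 genes tested. A call is an adjusted p under 0.05 with no minimum fold. Differences between conditions are interaction terms of that fit. The 23 °C and 39 °C contrasts come from a separate fit of 12 libraries. CPM use TMM-scaled totals, and limma 3.58.1 (log2 of FPKM plus 1 or 0.1, mean FPKM at least 0.5) and DESeq2 1.42.0 were alternatives. Tables and figures were made with Python 3.11.15, and scripts were tested on simulated counts.

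The members and gene lists were chosen with earlier results of these data known. The 28 lists by locus hold 521 genes, and 5 more follow rules on genome, position or annotation text. Lists are described by counts called and medians beside all genes, with no set test. Genes were named by rule: EXA1, the 12 largest changes each way (symbol, mean of at least 5 CPM, no overlap), the 8 most counted called genes each way, the 6 largest interactions each way and up to 6 members per list; of these 229 genes the text gives a part, and that part, like any other gene named, was picked after the values were seen. The replicates are independent biological samples per the labels. Replicate numbers did not pair the libraries: residuals of 18 same-numbered pairs correlated between -0.0404 and 0.102, with 1 over 0.1. The labels give no usable batch, since their batch entry is identical throughout.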

Additional observations from a re-analysis of the deposited data

Results flagged for a closer look

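Of the 230 named genes 125 passed the interaction test in edgeR, meaning that the genotype difference in salt departed from that in MS (n = 3 libraries per group), and 129 without the third exa1 MS replicate. Among all genes tested 20.0% passed it. The named genes were picked in part for large interactions or large changes in salt, so their share cannot be set against that of all genes. The 28 given here were picked after their values were seen, and each kept its sign and call without that replicate. Values are differences of log2 fold changes, exa1 over WT in NaCl minus in MS. EXA1 had -1.02. Among genes lower in exa1 under salt, LHB1B2 had -0.69, RBCS1A -0.54, CYP83A1 -0.93, MYB28 -1.0, MAM1 -0.88, IPMI1 -1.22, P5CS1 -0.53 and SVL2 -1.29. RGF9, a root meristem peptide gene, had -1.45, SP1L5, a microtubule-related gene, -1.23 and MCM2 -0.91; each was lower in salt and not lower in MS.

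Positive differences stood at 0.68 for BIP2, 0.58 for CRT1a, 0.57 for CNX1 and 0.47 for SHD among ER folding genes. ERD10 had 0.91, COR47 0.82, P5CS2 0.65 and PIP1A 0.96. Of the largest rises in salt, the difference was 2.28 for TH8, 2.77 for NATA1, 1.70 for ENDO2, 1.47 for CRK13 and 1.05 for CT-BMY. ELI3-2, an alcohol dehydrogenase of defence, was slightly higher in salt (0.17) and far lower in MS (-2.62), with a difference of 2.79; its small rise in salt lost its call without exa1 replicate 1 (0.142) or WT replicate 2 (0.153). The defensin genes PDF1.2 and PDF1.2c, higher in both conditions, had differences of -1.40 and -2.41.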

How the results depend on the processing

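Of 230 named genes (229 by rule and AT1G64795) 208 were called, and 174 kept their call in each of the 25 settings tried apart from the 2-fold minimum; 26 lost it without some library. A 2-fold minimum left 473 genes called in salt. Leaving out single libraries gave 5752 to 7735 calls in salt, 6398 to 7747 in MS and 3522 to 4513 for the difference between them. With the replicate block there were 7059, 7850 and 4447 calls, and no named gene changed its call. The mitochondrial ATMG00020 (0.01, not called) changed sign, to -0.005 and -0.028 without exa1 salt replicates 2 and 3 and -0.046 without WT salt replicate 3 (up to 0.072, without WT salt replicate 2). Medians of 6 of 33 lists changed sign in some setting: aquaporins, clock, cytosolic ribosomal proteins, pattern-triggered immunity, salicylate and small heat shock proteins. Effects under 1.2-fold depend on depth and scaling, and genes with few counts have wide errors.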
